A study of Mus musculus with 2 samples.

Results

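Mir183, Mir96 and Mir182 are 3 microRNA genes that lie together on mouse chromosome 6 and are cut from hairpins of 1 primary transcript. They were picked by name and position in the annotation, a rule that uses no measured value, but with earlier results of these data known. All 3 had a row in both tables, out of 1973 genes, 1894 of which matched an annotated microRNA gene. The libraries were microRNA sequencing of forebrain dissected from embryos of the B6NCrl strain and of both sexes at embryonic age 12.5 days, with RNA shorter than 30 nt. There was 1 group of 2 biological replicates, a pool of 120 embryos (replicate 1) and a pool of 68 embryos (replicate 2), and no treated, mutant or second tissue group. Each pool gave 1 library, so a difference between pools and a difference in dissection, preparation or sequencing cannot be told apart, and p-values between the libraries measure reads of these libraries, not a condition.

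MicroRNAs are short RNAs cut in 2 steps from a hairpin, first in the nucleus by DROSHA and then in the cytoplasm by DICER. The mature strand guides an Argonaute protein to messenger RNAs that pair with its seed, which is bases 2 to 8 counted from the 5′ end, and lowers their output. The cluster is best known from sensory organs. It is abundant in photoreceptors of the retina, in hair cells of the inner ear, in olfactory and taste cells and in sensory ganglia, and seed mutations of miR-96 cause hearing loss in mice and humans. Forebrain at this age is made up mostly of dividing neural progenitors and the first neurons.

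The mature 5p strands are shown first, with the seed in capitals, because the hairpins share a transcript but carry related and not identical seeds. Sequences are those of RefSeq on GRCm38.p6, 5′ to 3′, and all 3 genes matched there.
miR-183-5p: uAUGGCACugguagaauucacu
miR-96-5p: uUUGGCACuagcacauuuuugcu
miR-182-5p: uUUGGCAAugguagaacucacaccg

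With positions counted from the 5′ end of each mature strand, miR-183-5p and miR-96-5p differed at 1 seed position, A2U. MiR-96-5p and miR-182-5p also differed at 1 seed position, C8A. MiR-183-5p and miR-182-5p differed at both of these positions, A2U and C8A, but were alike beyond the seed, with 18 of 22 positions identical and a shared run of 8 bases, UGGUAGAA, that starts at base 9 in each. The other pairs were less alike over their whole length, with 13 of 22 positions identical for miR-183-5p and miR-96-5p and 12 of 23 for miR-96-5p and miR-182-5p. Bases 3 to 7, UGGCA, were the same in all 3, and 5 of 1679 mature names in the RefSeq table had these letters there (0.298%), the 3 cluster strands included.

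The hairpins follow, with both mature arms in capitals, because the deposited counts are per hairpin and do not tell the 5p arm from the 3p arm.
Mir183: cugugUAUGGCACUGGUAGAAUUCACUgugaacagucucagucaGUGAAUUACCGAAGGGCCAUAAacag
Mir96: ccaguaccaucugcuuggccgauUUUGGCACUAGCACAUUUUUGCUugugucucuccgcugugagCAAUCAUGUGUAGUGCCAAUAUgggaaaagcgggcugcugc
Mir182: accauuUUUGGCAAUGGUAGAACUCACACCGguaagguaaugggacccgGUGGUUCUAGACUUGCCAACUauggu

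All 3 lie on the minus strand of mm10. Mir183 (ENSMUSG00000065619.2) comes first in the direction of transcription, at chr6:30169668-30169737, and is 70 bases long. Mir96 (ENSMUSG00000065586.1) follows after 116 bases, at chr6:30169446-30169551, and its annotated hairpin is 106 bases long. Mir182 (ENSMUSG00000076361.1) lies 3453 bases further on, at chr6:30165918-30165992, and is 75 bases long. The whole cluster spans 3820 bases, is intergenic in GENCODE M21, and no other annotated gene overlaps it. Rncr4, a long non-coding RNA known from retinal photoreceptors, starts 3155 bases from Mir183 on the opposite strand. The nearest coding genes are Nrf1, 12459 bases beyond Mir182, and Ube2h, 41551 bases from Mir183 on the side of Rncr4. Nrf1 encodes a transcription factor of mitochondrial genes and Ube2h a ubiquitin-conjugating enzyme. The libraries were of microRNAs, so no level was analysed here for Rncr4, Nrf1 or Ube2h.

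None of the 3 hairpins shared a stretch of 20 bases with another annotated hairpin, and none of their 6 mature strands occurred in another of 1005 RefSeq hairpins. Reads that matched several places, 37.95% and 37.87% of all reads, stood outside the gene counts, and how many of them the 3 genes would have gained was not tested. The libraries held 4333194 and 4397107 reads assigned to the 1973 genes on the gene strand. Levels are reads per 1000000 of these (CPM). They were not divided by hairpin length except where stated, since a read covers a whole mature strand.

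All 3 hairpins were read in both pools, in the order Mir182, Mir183, Mir96. Mir182 had 12478 reads in replicate 1, or 2880 CPM, and 10427 reads in replicate 2, or 2371 CPM. Its mean was 2625 ± 359 CPM (SD, n = 2), rank 69 of 1973 genes. Mir183 had 7098 reads in replicate 1, or 1638 CPM, and 5260 reads in replicate 2, or 1196 CPM. Its mean was 1417 ± 312 CPM (SD, n = 2), rank 90. Mir96, the member with the disease-linked seed, had 2580 reads in replicate 1, or 595.4 CPM, and 2353 reads in replicate 2, or 535.1 CPM. Its mean was 565.3 ± 42.6 CPM (SD, n = 2), rank 131. Replicate 1 was the higher library for each hairpin, and the values of 1 hairpin did not overlap those of the next. The 95% Poisson interval in replicate 1 ran from 2829 to 2931 CPM for Mir182, from 1600 to 1677 CPM for Mir183 and from 572.6 to 618.8 CPM for Mir96. By Fisher's exact test (adjusted p under 0.05), 61 of the 229 genes of at least 100 CPM were called lower in replicate 2 (26.6%), the 3 hairpins among them. Another 78 were called higher, so a call is common at this depth. The Poisson intervals hold counting error only, because each rests on the reads of 1 library. Nothing in the sources names molecular identifiers that would tell copies from molecules, so they may be too narrow.

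**Figure D1:**
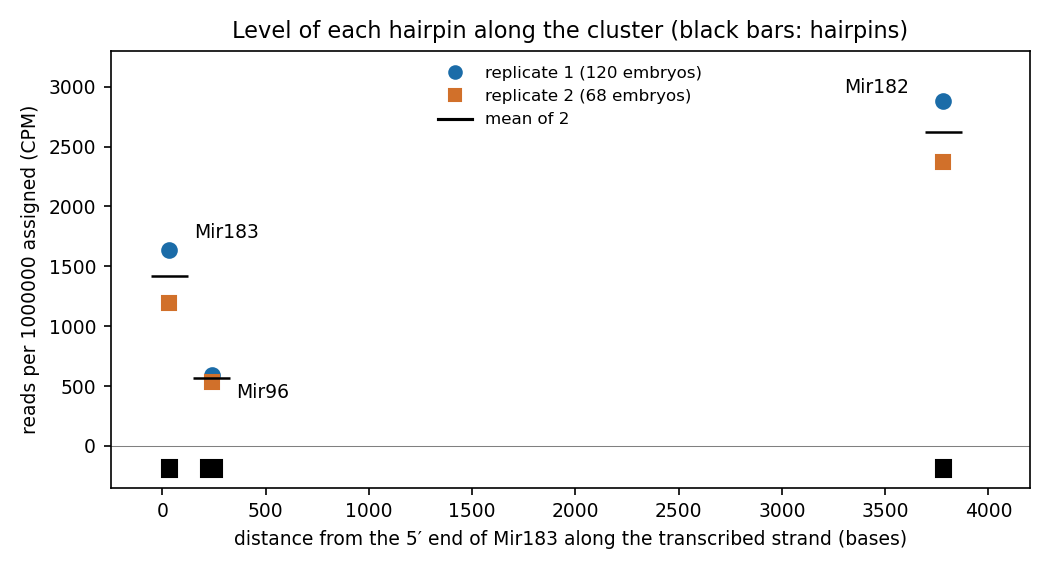
Level of each hairpin in reads per 1000000 assigned reads (CPM, vertical axis) against its distance in bases from the 5′ end of Mir183 along the transcribed strand (horizontal axis). Circles are replicate 1, squares replicate 2, horizontal lines their mean and black blocks the hairpins; Mir96 lies 116 bases from Mir183 but is lower in both pools, and the distant Mir182 is highest in both.

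Together the 3 genes held 22156 reads in replicate 1 and 18040 in replicate 2, or 5113 and 4103 CPM, a mean of 4608 ± 714 CPM (SD, n = 2). That was 0.511% and 0.410% of assigned reads. Of 1973 genes, 101 had a mean level of 1000 CPM or more, Mir182 and Mir183 among them, and Mir96 stayed below it.

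The make-up of the cluster was close in the pools. Mir182 gave 56.3% of the cluster's reads in replicate 1 (95% Clopper-Pearson interval 55.7 to 57.0%) and 57.8% in replicate 2 (57.1 to 58.5%). Mir183 gave 32.0% (31.4 to 32.7%) and 29.2% (28.5 to 29.8%). Mir96 gave 11.6% (11.2 to 12.1%) and 13.0% (12.6 to 13.5%). The shares differed between the pools by more than counting error, while their order was the same in both. How far hairpins of other clusters differed between the pools is given below.

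**Figure D2:**
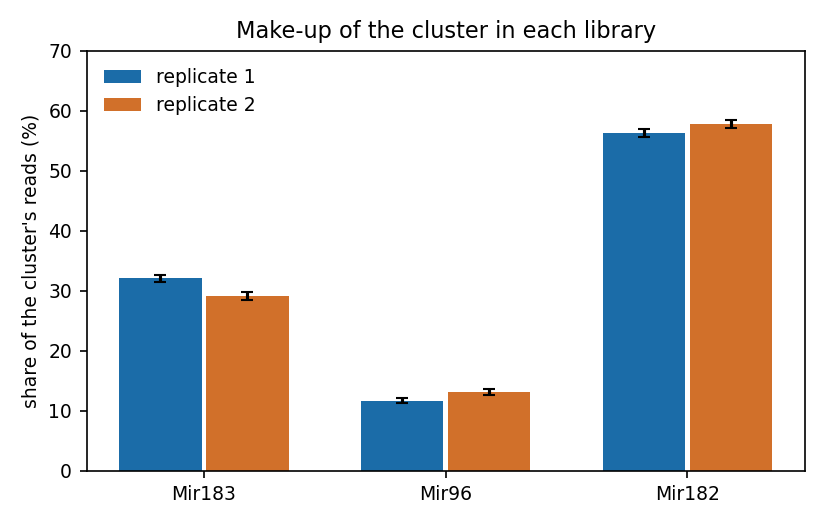
Share of the cluster's reads (percent, vertical axis) given by each hairpin in replicate 1 and replicate 2, with 95% Clopper-Pearson intervals as error bars, which cover counting error only. Mir182 holds 56.3% and 57.8%, Mir183 32.0% and 29.2%, and Mir96 11.6% and 13.0%.

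On the scale of differences in log2(CPM + 1) between hairpins of the same library, Mir182 stood above Mir183 by 0.81 in replicate 1 and 0.99 in replicate 2, a mean of 0.90 ± 0.12 (SD, n = 2). In CPM this was 1.76-fold and 1.98-fold. Mir96 stood below Mir183, with differences of -1.46 and -1.16 and a mean of -1.31 ± 0.21 (SD, n = 2). Mir183 was thus 2.75-fold and 2.24-fold above Mir96 in CPM. Mir96 stood furthest below Mir182, with differences of -2.27 and -2.15 and a mean of -2.21 ± 0.089 (SD, n = 2). Mir182 was 4.84-fold and 4.43-fold above Mir96 in CPM. Each difference was several times the spread between the pools. Each pair of hairpins gives 1 difference per library, and with 2 such differences no permutation test can reach a p under 0.05, so none was made. Whether reads of different hairpins stand in the same proportion as their RNA was not tested.

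Divided by hairpin length, the order stayed the same, but the lengths allowed no other outcome. The lowest hairpin, Mir96, is the longest, and those of Mir182 and Mir183 are close in length, at 75 and 70 bases. Mir182 stood at 35.0 ± 4.79 CPM per base (SD, n = 2), Mir183 at 20.2 ± 4.46 and Mir96 at 5.33 ± 0.402. Mir182 was then 1.74-fold above Mir183, and Mir96, which has the longest annotated hairpin, was 3.76-fold below Mir183 and 6.54-fold below Mir182.

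Other clusters cut from 1 transcript give a measure of how unequal hairpins can be. Over 26 clusters with at least 2 genes with a row, the distance between the highest and the lowest hairpin, as a difference in mean log2(CPM + 1), had a median of 5.15 and ran from 0.26 between Mir181c and Mir181d to 11.11 in the cluster led by Mir322. Between Mir182 and Mir96 it was 2.21, or 4.62-fold, with 4 clusters narrower and 21 wider. The 4 narrower clusters, which are Mir181c with Mir181d, Mir15a with Mir16-1, Mir221 with Mir222 and Mir15b with Mir16-2, each had 2 genes, and a distance between extremes can only grow with more genes. Among the 5 clusters with 3 genes it was 4.62-fold here, 9.88-fold between Mir429 and Mir200a, 20.9-fold between Mir93 and Mir25, 57.9-fold between Mir23a and Mir24-2 and 588-fold between Mir449a and Mir449b. Of the 26 clusters, 13 held no hairpin that shares a stretch with another hairpin, this cluster among them. The others did, including those of Mir23a and Mir322, and the gene counts can lower such hairpins. The median and range over the 26 clusters can therefore hold lost reads as well as unequal levels. These are descriptions over clusters of different size, with no test.

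**Figure D3:**
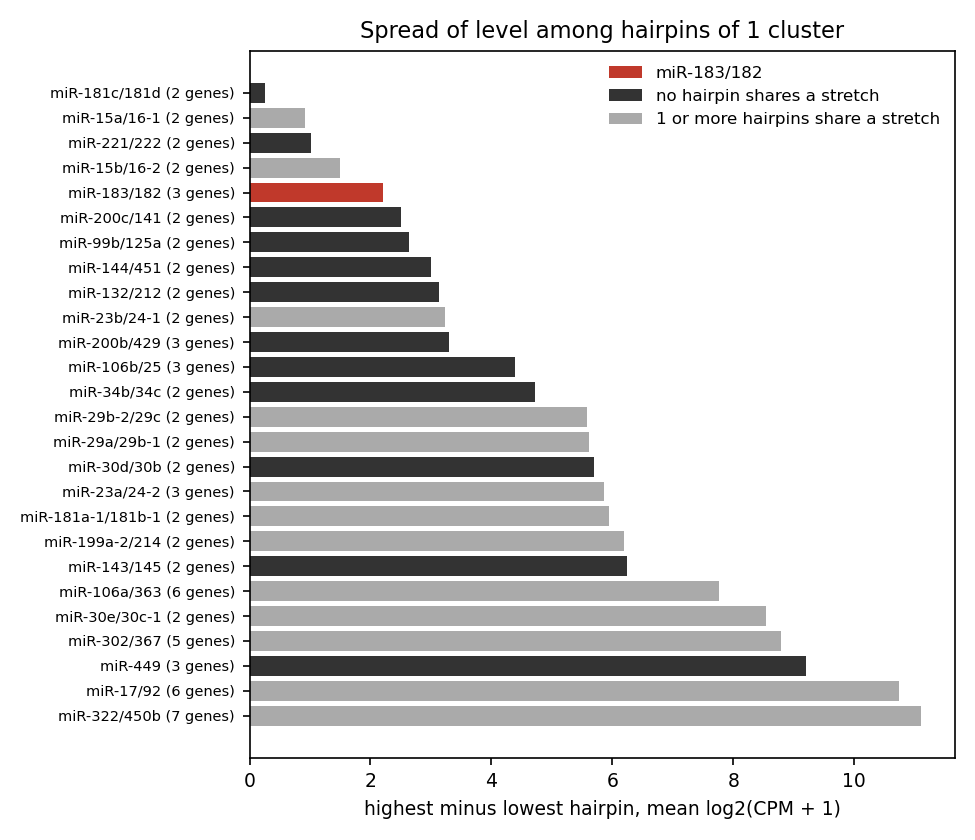
Difference in mean log2(CPM + 1) between the highest and the lowest hairpin (horizontal axis) of 26 clusters cut from 1 transcript, ordered from the narrowest. The bar of the Mir183, Mir96 and Mir182 cluster (red) reaches 2.21, with 4 shorter bars above it, grey bars are clusters with a hairpin that shares at least 20 bases with another, and the number of genes with a row stands beside each name.

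The 3 hairpins were each lower in replicate 2. Mir183 fell by 0.45 on the log2(CPM + 1) scale, to 73.0% of its level in replicate 1 (counting error of 0.026, 95% interval -0.50 to -0.40; two-sided Fisher's exact test with Benjamini-Hochberg adjustment, adjusted p = 2.6e-66). Mir182 fell by 0.28, to 82.3% (counting error of 0.019, 95% interval -0.32 to -0.24; adjusted p = 1.3e-47 by the same Fisher's exact test). Mir96 fell by 0.15, to 89.9% (counting error of 0.041, 95% interval -0.23 to -0.07; adjusted p = 0.00075 by the same Fisher's exact test). None of the 3 differed by 2-fold, while 14 of the 511 genes tested both passed the test and differed by at least 2-fold (2.74%). Over all genes with at least 10 reads, 167 of 511 passed this test (32.7%) and 64 were lower in replicate 2 (12.5%). Among the 229 genes of at least 100 CPM, where counting error is small, 61 were called lower (26.6%). With TMM library sizes the split over all genes changed from 64 lower and 103 higher to 90 lower and 80 higher, and the 3 hairpins kept their direction. In tissue, fewer cells of a type and less RNA per cell cannot be told apart, here or for the marker lists that follow.

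Other genes differed between the pools by similar amounts. Over the 229 genes of at least 100 CPM the log2 ratio of replicate 2 to replicate 1 had an SD of 0.29 and a median of 0.02. A larger ratio in either direction was found for 20 of these 229 genes in the case of Mir183, for 38 in that of Mir182 and for 89 in that of Mir96. A lower ratio than that of Mir183 was found for 10 of them, and 19 lay below Mir182 and 36 below Mir96. EdgeR's common coefficient of biological variation over 403 genes was 16.4%, which corresponds to an SD of 0.33 for such a log2 ratio.

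**Figure D4:**
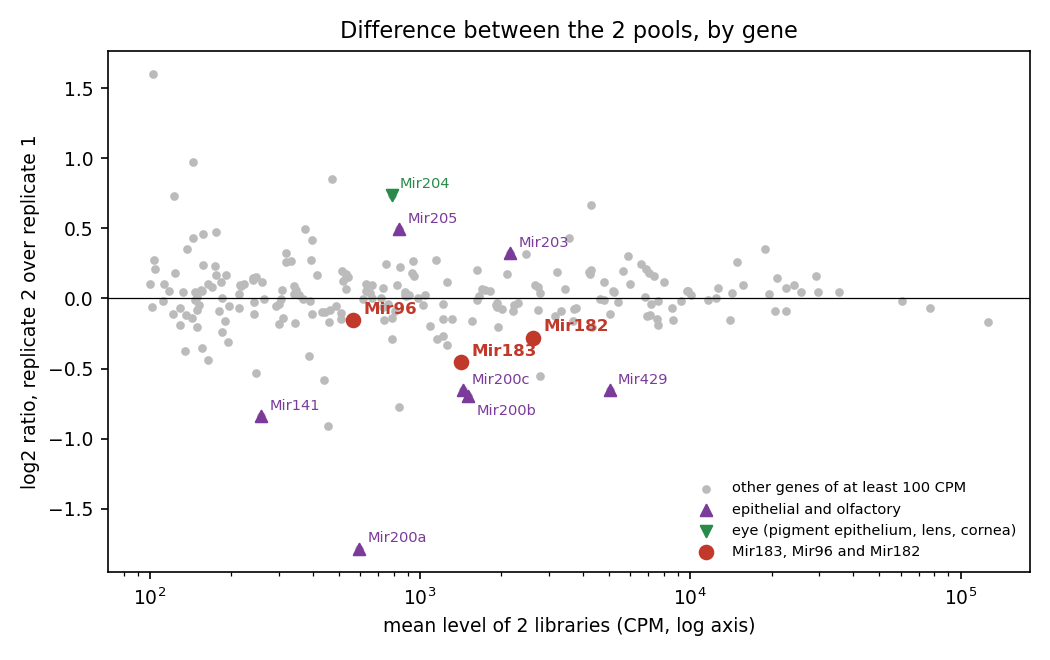
Log2 ratio of replicate 2 over replicate 1 (vertical axis) against mean level in CPM (horizontal, log axis) for 229 genes of at least 100 CPM. Mir183, Mir182 and Mir96 (red) lie below 0 at -0.45, -0.28 and -0.15, the 5 miR-200 genes (triangles) lower still, and Mir203, Mir205 and Mir204 lie above 0.

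Hairpins of 1 transcript did not fall by the same factor. The log2 ratio between the pools was less negative for Mir96 than for Mir183 by 0.30 (counting error of 0.049, 95% interval 0.20 to 0.40; Fisher's exact test, p adjusted over 3 pairs 2.7e-09). It was less negative for Mir182 than for Mir183 by 0.17 (counting error of 0.032, 95% interval 0.11 to 0.24; Fisher's exact test, adjusted p = 1.4e-07). Mir96 and Mir182 differed by 0.13 (counting error of 0.045, 95% interval 0.037 to 0.22; Fisher's exact test, adjusted p = 0.0056). These tests hold counting error only. Over the other 25 clusters the ratios of the extreme hairpins lay 0.038 to 1.24 apart, with a median of 0.32. The 0.30 between Mir96 and Mir183 had 12 of these clusters narrower and 13 wider. Some wide clusters rest on few reads. The widest, Mir29a with Mir29b-1, has a hairpin with 20 reads over both libraries, against at least 4933 here. The 1.13 between Mir429 and Mir200a has at least 5156. Clusters also differ in their number of genes, so this place does not tell whether 0.30 is usual for well-read hairpins.

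MicroRNAs of other cell types moved between the pools as well. Of the 10 marker lists, the epithelial and olfactory list had all 7 genes read and a summed level of 13628 CPM in replicate 1 and 10008 CPM in replicate 2, or 73.4%. Its median log2 ratio was -0.65 over 7 genes, against 0.04 over all 511 genes tested, with 5 genes lower and 2 higher by Fisher's exact test. The 5 lower ones were the miR-200 genes, which keep cells epithelial and are needed for olfactory neurons to form, and they ran from -1.79 for Mir200a to -0.65 for Mir429. Mir203 and Mir205, of surface epithelium, were the 2 higher ones, at 0.33 and 0.50. The part of epithelial or olfactory cells in the lower level of the cluster was not tested.

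Of a list of eye microRNAs, Mir204 and Mir211 went the other way. The list of pigment epithelium, lens and cornea genes had a summed level of 599.8 CPM in replicate 1 and 1073 CPM in replicate 2, or 179%, with 2 of 3 genes higher and a median log2 ratio of 0.83. Mir204, which is abundant in pigment epithelium, stood at 587.6 and 982.2 CPM, and Mir211, its relative, at 10.6 and 87.3 CPM. Mir184, of lens and cornea, had 7 and 16 reads and did not pass the test, at a log2 ratio of 0.83 (Fisher's exact test, adjusted p = 0.21). Mir204 and Mir211 were thus lower in replicate 1, the pool in which the sensory cluster was higher. The list is named for the eye, but whether the reads of these genes came from eye tissue or from forebrain cells was not tested. None of them marks photoreceptors, and no list here held a gene of hair cells or photoreceptors outside the cluster itself.

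Of the placodal and endocrine list, 2 of 4 genes were lower in replicate 2 and none higher, with a median log2 ratio of -0.17 and a summed level of 2799 and 2416 CPM, or 86.3%. Mir375, of endocrine and some sensory cells, stood at 442.2 and 332.5 CPM, a log2 ratio of -0.41, and Mir7b at 1405 and 1115 CPM, a log2 ratio of -0.33. The neural list was level in sum, at 28580 and 28088 CPM with 8 of 10 genes having a row. Of these, 1 was called lower and 2 higher, with a median of 0.04. The higher ones, Mir92b and Mir137, had log2 ratios of only 0.03 and 0.04, close to the median of 0.04 over all genes tested. The lower one was Mir153, a neuronal microRNA, at 3304 and 2251 CPM. Most of the sum was Mir92b, at 19420 and 19820 CPM. The Mir9 and Mir124a genes share a stretch with another hairpin, so their reads can stand outside the gene counts. The same holds for Mir7-1 and Mir7-2 of the placodal list and for Mir199a-1 and Mir199a-2 of the mesenchymal list. Higher in replicate 2 were the summed levels of the mesenchymal list, 12983 and 15695 CPM with 5 of 6 genes called higher, of the endothelial Mir126a, 16564 and 21180 CPM, and of the multiciliated list, 3987 and 5940 CPM with 2 of 5 called higher. The hindbrain and spinal cord list stood at 178.6 and 168.7 CPM with none called. The erythroid list stood at 317.8 and 238.3 CPM with 1 of 2 genes lower and 1 higher. The muscle list stood at 3.23 and 26.8 CPM, and nearly all of this was Mir206, a skeletal muscle microRNA, with 13 and 117 reads and a log2 ratio of 2.79 (Fisher's exact test, adjusted p = 5.1e-21). Mir133a-1 and Mir133a-2 were at 0 in both libraries, but they share a stretch with another hairpin, so their reads can stand outside the gene counts.

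The genes nearest to each hairpin in level were found over the 2 libraries, by the distance between values of log2(CPM + 1). Nearest to Mir183 were Mir200c, at 1769 and 1123 CPM and a distance of 0.14, and Mir200b, at 1859 and 1148 CPM and a distance of 0.19. Mir7b, Mir674 and Mir433 followed at 0.24 to 0.30. Nearest to Mir182 were Mir425, at 2819 and 2659 CPM and a distance of 0.17, and Mir153, at a distance of 0.21, followed by Mirlet7d, Mir351 and Mir106a at 0.26 to 0.27. Nearest to Mir96 were Mir330, at 517.4 and 543.1 CPM and a distance of 0.20, followed by Mir376c, Mir34c, Mirlet7b and Mirlet7f-2 at 0.21 to 0.24. Mir376c and Mirlet7f-2 share a stretch with another hairpin, so their levels are uncertain. With 2 libraries such a distance holds mostly the level and carries no test.

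No other gene with the seed of miR-183-5p or miR-182-5p was found in the RefSeq table. The seed of miR-96-5p, UUGGCAC, was also that of miR-1271-5p, from the gene Gm24195 on chromosome 13, which is shown because it is the one other carrier of a 5p seed of the cluster.
miR-1271-5p: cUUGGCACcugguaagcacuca

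Gm24195 had 0 reads on either strand in both libraries, which allows a level of up to 0.692 and 0.682 CPM, against 595.4 and 535.1 CPM for Mir96. Mir7022, the other gene that carries bases 3 to 7 of the cluster in a mature strand, miR-7022-5p, had 0 reads too. Mir3475 carries the seed of the 3p arm of Mir96, AAUCAUG, and stood at 25.2 and 22.3 CPM. Of the assigned reads from genes with a 5p seed of the cluster, those of the cluster's own hairpins were therefore the ones detected at this depth.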

How the data were processed

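Small RNA of 2 pools of embryonic forebrain was sequenced, 1 library each. The deposited tables hold raw read counts per gene for both strands, the gene strand and the opposite strand, which the authors derived from alignments to mm10 with annotation M4, per the deposited notes. Aligner, counter, trimming and the treatment of multiple matches were not given in the sources used here. The strand columns were read from the values. Left out of all totals were 4 summary rows, with 17.5% and 16.8% of reads unmapped, 37.95% and 37.87% with several matches and 5.49% and 5.93% in no feature.

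Ensembl IDs without version were matched to GENCODE M21 (1894 of 1973), whose build is mm10. With 1 group, edgeR's quasi-likelihood contrast could not be fitted. CPM used gene-strand assigned reads, and differences log2(CPM + 1). Fisher's exact test compared 511 genes with at least 10 reads over both libraries, called at a Benjamini-Hochberg adjusted p under 0.05. It was tried on simulated data with counting noise only, for calls with a 2-fold minimum. That trial does not cover smaller differences or variation between pools. Scaling alternatives used edgeR 4.0.16 and DESeq2 1.42.0 in R 4.3.3, the rest Python 3.11.15, SciPy 1.17.1, NumPy 2.4.6 and pandas 2.3.3. Genes named are the members, the marker lists, the 5 genes nearest each member and genes sharing a seed. Of 27 other clusters listed, 1 had under 2 genes with a row and 1 had its genes on different chromosomes. The members, lists and clusters were chosen with earlier results of these data known. A gene without reads has a floor of 3 counts.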

Additional observations from a re-analysis of the deposited data

Results flagged for a closer look

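Reads on the strand opposite to the hairpins entered no comparison above. Mir183 had 9 such reads in replicate 1 and 4 in replicate 2, and Mir182 had 11 and 5, each above the 3 counts that a count of 0 allows. They were 0.127% and 0.0760% of the reads at Mir183 and 0.0881% and 0.0479% of those at Mir182. Mir96 had 0 in both libraries, which allows up to 0.116% and 0.127%, so a share like that of Mir182 was not detectable in it. There were no control samples. Of 247 genes with at least 500 reads over both libraries, 32 had any read on the opposite strand, Mir183 and Mir182 among them.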

How the results depend on the processing

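Of 76 values recomputed, 70 kept their direction and call or stayed within the spread of the pools, and none reversed. For levels and hairpin ratios, leaving out a replicate always stays within this spread. It moves a mean of 2 values by less than their SD. The pseudocount alternatives for ratios between the libraries reused the call of the main setting. Both kinds are counted among the 70, though neither could have changed in this respect. With the most abundant gene left out of the library size, the level of Mir96 was 647.3 CPM and that of Mir182 3008 CPM, which follows from the smaller total. Division by hairpin length, a setting chosen after seeing the data, could not reverse the order. It gave a log2 difference of -1.91 between Mir96 and Mir183 and of -2.71 between Mir96 and Mir182. The place of the cluster among clusters ordered from the narrowest spread was 5 of 26, and 3 of 17 without hairpins that share a stretch. It was also 3 of the 13 clusters with no such hairpin, chosen after seeing the data. Over the 7 alternatives and the main setting, the log2 ratio of replicate 2 to replicate 1 ran from -0.50 to -0.45 for Mir183, from -0.32 to -0.28 for Mir182 and from -0.20 to -0.15 for Mir96, whose adjusted p by Fisher's exact test ran from 8.4e-06 to 0.0011. Leaving out either replicate gave 1196 to 1638 CPM for Mir183, 535.1 to 595.4 CPM for Mir96 and 2371 to 2880 CPM for Mir182, and left the place at 5. TMM sizes shifted the median ratio of all genes by -0.04. No paired analysis was possible because there is 1 group. With 2 libraries, counting error is not what limits these genes, and the spread between pools rests on 1 difference.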
